A study of Mus musculus with 69 samples.

Results

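The response to loss of miR-200a/b control over Zeb1 was compared between the pituitary and the ovary of young female mice, gene by gene. The comparison used 15 of the 69 RNA-seq libraries of the series, namely every young-cohort WT and Zeb1_200M library of those tissues: 3 WT and 4 Zeb1_200M pituitaries, and 4 WT and 4 Zeb1_200M ovaries. In Zeb1_200M (200M) mice both Zeb1 alleles carry base changes that remove the sites for miR-200a and miR-200b, while WT mice carry the unaltered gene, and no other allele or agent was used in either group. All were virgin C57BL/6J females aged 8–12 weeks, killed at their first proestrus. The mutant line descends from a pair of embryonic stem cell clones, and which clone stood behind each library was not given in the sources used here. Tissues were whole organs, so the pituitary held all lobes and every ovary could carry some oviduct. For each gene the question was whether the difference between 200M and WT in pituitary departed from the difference between 200M and WT in ovary, which is the genotype by tissue interaction. Positive interaction values mean that the 200M effect was higher in pituitary than in ovary.

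Zeb1 is a zinc finger repressor that binds E-box letters near promoters and is best known for holding down epithelial genes in mesenchymal cells. The miR-200 family in turn targets Zeb1, and Zeb1 represses the loci that encode the family, so the pair forms a double-negative loop. The pituitary is a largely epithelial endocrine gland that expresses the miR-200 family and releases the luteinizing hormone surge of proestrus. The ovary is made largely of granulosa, theca and stromal cells, with follicles and corpora lutea, and responds to that surge with ovulation and luteinization.

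The mature miR-200 sequences are shown because the knock-in acts through their seeds. The family falls into 2 seed groups, and capitals mark the seed (bases 2 to 8 from the 5′ end). Sequences are from RefSeq on GRCm38.p6. The members on chromosome 4 lie at chr4:156055685-156055706 (miR-200b), chr4:156054911-156054932 (miR-200a) and chr4:156053916-156053937 (miR-429), and those on chromosome 6 at chr6:124718324-124718346 (miR-200c) and chr6:124717917-124717938 (miR-141), all on the minus strand.
mmu-miR-200b-3p: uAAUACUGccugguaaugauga
mmu-miR-200c-3p: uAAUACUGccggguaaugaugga
mmu-miR-429-3p: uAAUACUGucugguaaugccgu
mmu-miR-200a-3p: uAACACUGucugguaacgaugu
mmu-miR-141-3p: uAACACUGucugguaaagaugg

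Promoter windows of 300 bases (250 before to 50 after the annotated start, RefSeq, GRCm38.p6) were searched on both strands for the ZEB-type E-box letters CAGGTA and CAGGTG. Of 27025 gene windows, 7908 (29.3%) held at least 1 match, so a match is common and is given here as a description of the letters alone. The windows below are for the host transcript of miR-200b, miR-200a and miR-429 (Gm13648, chr4:156059753-156060052, minus strand), for Tmc4 (chr7:3677504-3677803, minus strand), for Krt7 (chr15:101412153-101412452, plus strand) and for Ap1m2 (chr9:21312284-21312583, minus strand), with matches in capitals. Gm13648, Tmc4 and Krt7 are among the genes described below that fell in 200M pituitary, and Ap1m2, which fell too, was added after its 4 matches were seen. Matches also stood in the window of Dnm1, which rose, and none stood in those of Dmrta1 and Zfp36, which fell.
Gm13648: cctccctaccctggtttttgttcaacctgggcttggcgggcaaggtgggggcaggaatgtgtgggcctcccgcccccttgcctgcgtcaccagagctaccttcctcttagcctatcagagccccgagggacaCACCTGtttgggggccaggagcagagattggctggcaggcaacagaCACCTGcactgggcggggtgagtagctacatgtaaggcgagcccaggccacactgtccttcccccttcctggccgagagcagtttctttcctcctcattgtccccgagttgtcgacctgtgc
Tmc4: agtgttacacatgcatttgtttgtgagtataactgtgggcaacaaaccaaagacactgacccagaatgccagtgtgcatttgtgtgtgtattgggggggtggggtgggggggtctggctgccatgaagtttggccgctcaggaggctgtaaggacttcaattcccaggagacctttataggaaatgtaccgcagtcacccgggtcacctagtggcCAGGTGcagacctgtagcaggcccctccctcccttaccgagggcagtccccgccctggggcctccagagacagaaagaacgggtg
Krt7: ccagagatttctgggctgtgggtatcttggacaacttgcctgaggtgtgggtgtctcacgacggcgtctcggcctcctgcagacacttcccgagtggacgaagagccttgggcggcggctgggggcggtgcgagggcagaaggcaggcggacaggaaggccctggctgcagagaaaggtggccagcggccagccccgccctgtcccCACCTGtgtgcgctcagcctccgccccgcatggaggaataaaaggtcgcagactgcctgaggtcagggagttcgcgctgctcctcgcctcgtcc
Ap1m2: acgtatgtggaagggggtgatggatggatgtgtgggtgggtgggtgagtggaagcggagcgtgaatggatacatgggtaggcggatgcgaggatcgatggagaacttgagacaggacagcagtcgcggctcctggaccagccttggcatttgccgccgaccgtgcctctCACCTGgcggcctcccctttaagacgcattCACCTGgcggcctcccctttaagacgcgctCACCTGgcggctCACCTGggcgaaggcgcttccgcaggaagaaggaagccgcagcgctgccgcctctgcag

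Levels are CPM, counts per 1000000 counts of the library, scaled within each tissue. Depth was 7560888 to 13342430 counts per pituitary library and 6337205 to 12896366 counts per ovary library. Defining markers fitted the labelled tissues, since Gh, Prl and Pomc were abundant in every pituitary and near 0 in ovary, while Fshr, Zp3 and Gdf9 were found in ovary and near 0 in pituitary. Some libraries stood apart. Ovary 200M replicate 4 held less of the oviduct and surface epithelium list (150.0 CPM summed over 21 genes) than the other ovaries (492 to 1000 CPM). Ovary 200M replicate 2 lay near the WT ovaries for several luteal genes. Pituitary WT replicate 2 and 200M replicate 4 held more immediate early transcripts than the other libraries of their genotype. Results that rest on these libraries are given below with and without them, and p-values measure only the spread between these samples.

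The edited gene responded in pituitary and not detectably in ovary. Zeb1 (ENSMUSG00000024238.15, chr18:5591860-5775467, plus strand) stood at 96.5, 93.8 and 93.6 CPM in WT pituitary and at 130, 135, 140 and 139 CPM in 200M pituitary. In ovary it stood at 197, 185, 218 and 194 CPM in WT and at 197, 193, 181 and 191 CPM in 200M. The groups were apart in pituitary and overlapped in ovary. Zeb1 RNA was 1.44-fold higher in 200M pituitary (log2 fold change 0.52 ± 0.06 SE, edgeR quasi-likelihood adjusted p = 3.66e-06), whereas the ovary difference was −0.06 ± 0.06 (adjusted p = 0.722). The interaction was 0.60 ± 0.08 on the log2 scale (95% interval 0.44 to 0.75, adjusted p = 1.93e-05). Zeb2, the paralogous repressor, differed by 0.20 in pituitary and −0.29 in ovary, and its interaction of 0.50 missed the threshold (adjusted p = 0.0578).

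The host transcripts of the miR-200 clusters fell in pituitary. Gm13648 (chr4:156052715-156059802, minus strand) shares its strand and reads with the miR-200b, miR-200a and miR-429 hairpins and with Ttll10, so its value is uncertain to that degree. It stood at 15.2, 17.2 and 14.3 CPM in WT pituitary and between 1.97 and 2.52 CPM in the 4 200M pituitaries. The ovary values were between 1.64 and 3.23 CPM in WT and between 1.03 and 4.39 CPM in 200M. The pituitary groups were far apart and the ovary groups overlapped. The log2 fold change was −2.79 in pituitary (adjusted p = 6.58e-10), a 6.94-fold fall, and −0.05 in ovary (adjusted p = 0.976), with an interaction of −2.74 ± 0.46 (adjusted p = 0.000374). Gm15884, the host of miR-200c and miR-141, fell by 1.95 on the log2 scale in pituitary (adjusted p = 0.00499) and was too low in ovary to be tested. Mature miRNA levels were not measured by these libraries.

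More genes were called in pituitary than in ovary. Of 18199 genes tested in pituitary, 3971 (21.8%) passed an adjusted p of 0.05, with 2134 higher and 1837 lower in 200M. Of 19250 genes tested in ovary, 508 (2.64%) passed, with 197 higher and 311 lower. The median standard error of a log2 fold change was 0.137 in pituitary and 0.134 in ovary over the genes tested in both, so precision was close in the typical gene. The ovary count moved between 161 and 1373 when single ovary libraries were left out. It was lowest without 200M replicate 1 and highest without 200M replicate 2, and it was 202 to 266 without WT replicate 1, WT replicate 4, 200M replicate 3 or 200M replicate 4.

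Among 16643 genes tested in both tissues, 2651 (15.9%) had a called interaction, 1544 (9.28%) with a higher and 1107 (6.65%) with a lower 200M effect in pituitary. On the same genes, 3563 (21.4%) were called in pituitary, of which 1885 were raised (11.3%) and 1678 lowered (10.1%). In ovary, 461 (2.77%) were called, of which 176 were raised (1.06%) and 285 lowered (1.71%). Across genes, which are not independent replicates, the pituitary and ovary log2 fold changes had a Pearson r of −0.02 and a Spearman rho of −0.04, over 16643 genes and with no library in common.

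Of these genes, 152 were called in both tissues, which was 4.27% of the pituitary calls and 33.0% of the ovary calls. Of these, 62 (40.8%) moved the same way, with 31 raised and 31 lowered in both, and 90 (59.2%) moved in opposite directions, with 56 raised in pituitary and lowered in ovary and 34 the other way round. All 90 opposite genes also had a called interaction. A further 1853 genes were limited to pituitary, that is, called there, not called in ovary, and called for the interaction, with 1030 raised and 823 lowered. Another 174 genes were limited to ovary by the same rule, with 48 raised and 126 lowered. The word limited refers to the calls and does not mean that the other tissue had no response. The log2 fold change was larger in size in ovary for 60 pituitary-limited genes and in pituitary for 9 ovary-limited genes. These classes followed the ovary calls when single ovary libraries were left out. Without 200M replicate 1 there were 18 same-direction, 28 opposite and 51 ovary-limited genes, and without 200M replicate 2 there were 152, 255 and 468. Without WT replicate 1, WT replicate 4, 200M replicate 3 or 200M replicate 4 there were 27 to 36 same-direction, 36 to 47 opposite and 66 to 88 ovary-limited genes. For 1558 pituitary calls and 135 ovary calls the interaction did not pass, so those genes were called in one tissue without being shown to differ between tissues. Of the 285 genes lowered in ovary, 189 (66.3%) had a positive log2 fold change in pituitary, against 50.0% of all genes tested in both. Of the genes raised in ovary 48.3% were above 0 in pituitary, while 52.7% of those raised in pituitary were below 0 in ovary, and 52.1% of those lowered in pituitary were above 0 in ovary.

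**Figure D1:**
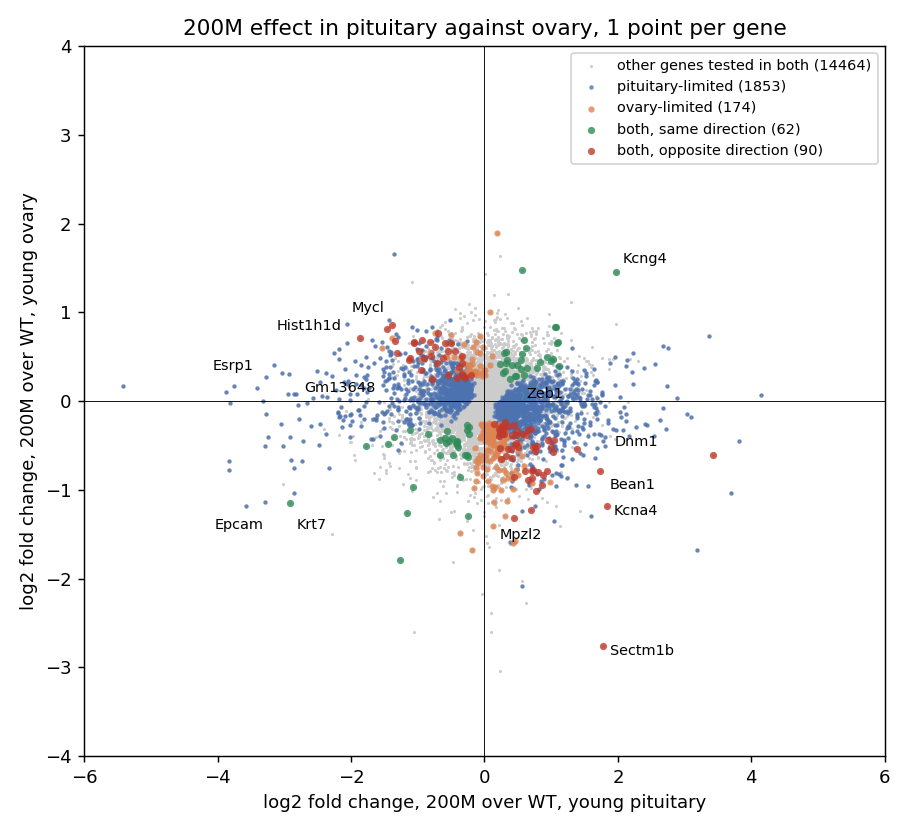
Log2 fold change of 200M over WT in young pituitary (x axis) against the same in young ovary (y axis), with 1 point per gene tested in both tissues and colour by class. The 90 opposite genes lie in the upper left and lower right quadrants, the 62 shared genes in the other quadrants, and the 1853 pituitary-limited genes stretch along the horizontal axis.

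Genes raised in pituitary and lowered in ovary included a channel gene and a postsynaptic gene. Sectm1b, which encodes a membrane protein of epithelial and immune cells, had the largest interaction of the named genes. In ovary it stood at 9.50, 7.46, 11.8 and 13.9 CPM in WT and at 1.19, 1.82, 1.64 and 1.60 CPM in 200M, a 6.78-fold fall (adjusted p = 6.87e-06). In pituitary it was scarce, between 0.11 and 0.63 CPM in WT and between 0.654 and 1.89 CPM in 200M, and rose by 1.78 on the log2 scale (adjusted p = 0.0295). The groups did not overlap in either tissue, and the interaction was 4.55 ± 0.57 (adjusted p = 1.05e-05).

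Kcna4, a voltage-gated potassium channel of the A type, rose from 1.36–2.40 CPM in WT to 5.15–9.32 CPM in 200M pituitary and fell from 3.41–5.28 to 0.895–2.29 CPM in ovary. Its log2 fold changes were 1.84 and −1.18, with an interaction of 3.03 ± 0.41 (adjusted p = 2.25e-05). Homer2, a postsynaptic scaffold protein that ties glutamate receptors to calcium signalling, is an example at higher levels. It stood at 99.2, 88.4 and 84.7 CPM in WT pituitary and at 135, 167, 176 and 141 CPM in 200M pituitary, but at 21.1, 16.2, 20.6 and 14.7 CPM in WT ovary and at 7.24, 10.1, 10.0 and 8.71 CPM in 200M ovary. The rise was 1.71-fold and the fall 2.02-fold (interaction 1.80 ± 0.18, adjusted p = 1.98e-06).

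The remaining genes named in that direction were Bean1, Tmem150c and Gda. Bean1, a binding partner of the ubiquitin ligase Nedd4, rose 3.32-fold in pituitary (adjusted p = 5.5e-07) and fell 1.73-fold in ovary (adjusted p = 0.0177). Tmem150c, a multipass membrane protein, rose 1.82-fold and fell 1.93-fold, and Gda, the guanine deaminase of purine breakdown, rose 1.91-fold and fell 1.72-fold. Their interactions were 2.54, 1.83 and 1.73. None of these genes had overlapping genotype groups in either tissue, which was a condition of the rule that chose them.

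In the other direction, lowered in pituitary and raised in ovary, the named genes were Mycl, Kif18b, Tdrd5 and the histone genes Hist1h1d, Hist1h3d and Hist1h1e. Mycl, a MYC-family transcription factor, stood at 3.80, 3.29 and 2.52 CPM in WT and at 1.29, 0.654, 0.941 and 2.27 CPM in 200M pituitary. In ovary it lay at 34.7, 33.4, 28.7 and 33.9 CPM in WT and at 65.0, 54.5, 56.0 and 60.8 CPM in 200M. It fell 2.61-fold in pituitary (adjusted p = 0.00862) and rose 1.81-fold in ovary (adjusted p = 4.86e-05), with an interaction of −2.26 ± 0.29.

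Hist1h1d, a linker histone gene, stood at 7.50, 5.82 and 10.4 CPM in WT pituitary and at 2.05, 1.72, 2.03 and 3.15 CPM in 200M pituitary. In ovary the values were 17.1, 23.5, 23.8 and 16 CPM in WT and 37.4, 24.8, 36.6 and 33.2 CPM in 200M, so 200M replicate 2 was the lowest of the mutants and still above every WT ovary. The interaction was −2.56 ± 0.31 (adjusted p = 1.4e-05). Kif18b, a mitotic kinesin, fell 2.76-fold in pituitary and rose 1.76-fold in ovary, and the histone genes Hist1h3d and Hist1h1e had interactions of −1.45 and −1.61. Hist1h1e overlaps Hist1h2be on the same strand, and reads of near-identical histone genes can be split between copies, so single histone genes are uncertain. Tdrd5, a Tudor protein of the germline piRNA pathway, fell 2.54-fold in pituitary and rose 1.60-fold in ovary (interaction −2.02) and overlaps an unnamed transcript on its strand.

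**Figure D2:**
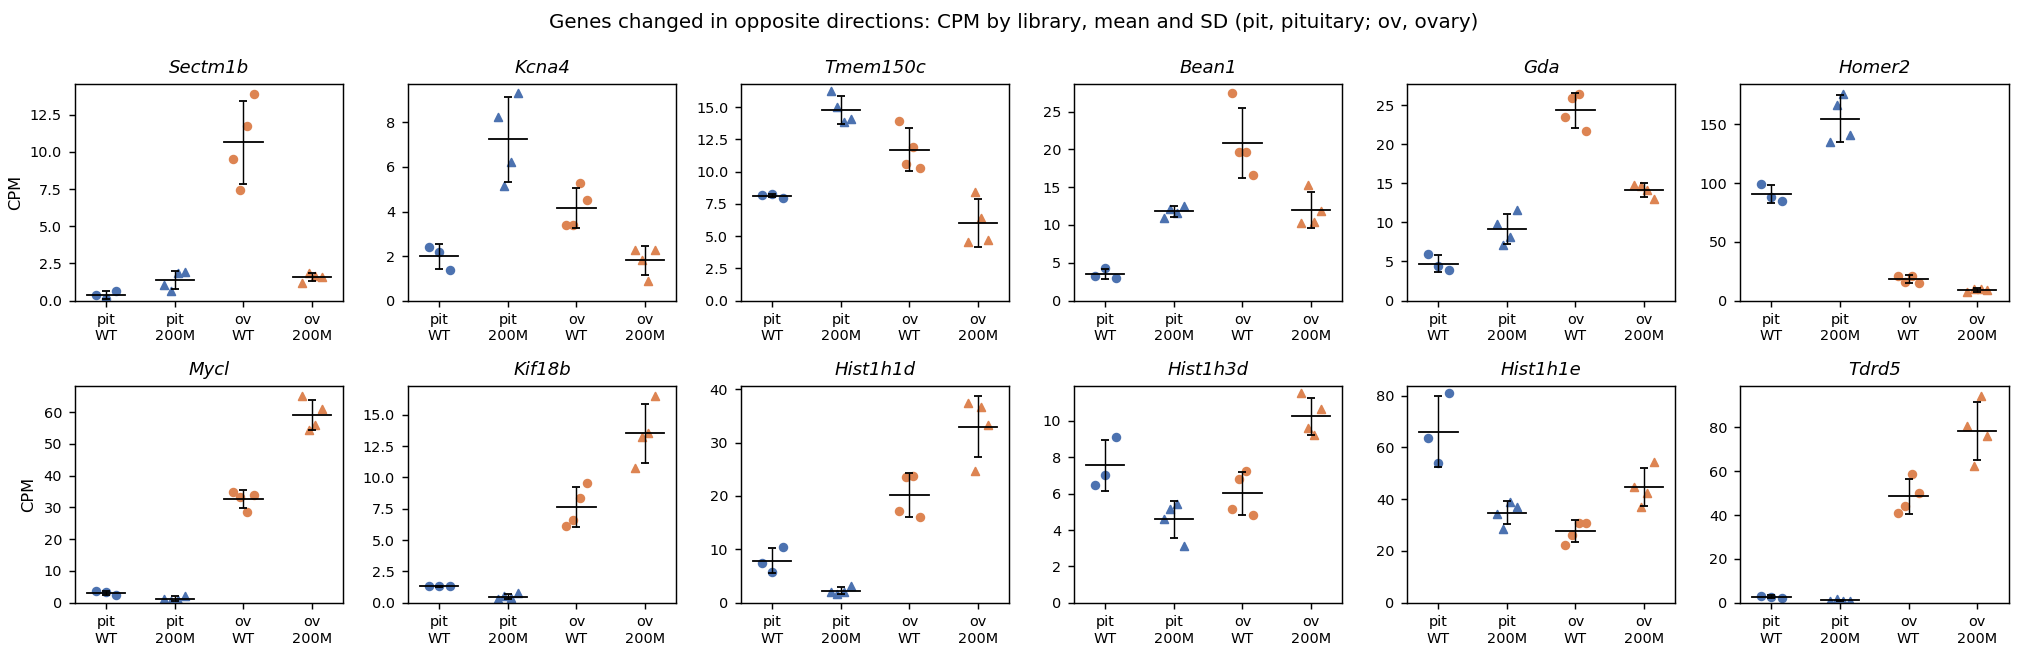
CPM in each library for the 12 genes of largest opposite response, with WT and 200M of each tissue side by side, points for libraries and bars for mean ± SD (n = 3 WT and 4 200M pituitaries, 4 and 4 ovaries). In each panel the genotypes separate in both tissues and in opposite directions, as in Homer2, which rose 1.71-fold in pituitary and fell 2.02-fold in ovary.

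Cell cycle genes that passed in pituitary were all lowered, and those that passed in ovary were all raised. On a list of 30, 9 of 28 tested fell and none rose in pituitary (median log2 fold change −0.77), while 6 of 30 rose and none fell in ovary (median 0.46). The median over all genes tested was 0.00 in pituitary and 0.01 in ovary, against backgrounds of 10.1% lowered in pituitary and 1.06% raised in ovary. The interaction was called for 16 of 28, all lower in pituitary (median −1.20), against 6.65% of genes tested in both tissues. Foxm1, the transcription factor of the G2/M programme, and Cenpe, a kinetochore motor, were called in both tissues, with Foxm1 at −0.79 and 0.50 and Cenpe at −0.98 and 0.57. Mki67 stood at 31.7, 26.8 and 35.7 CPM in WT pituitary and at 5.31, 13.6, 10.3 and 20.8 CPM in 200M pituitary. Ovary levels were 150, 207, 205 and 199 CPM in WT and 249, 211, 239 and 300 CPM in 200M, and neither tissue passed alone (adjusted p = 0.0802 and 0.178), although the interaction did (−1.77, adjusted p = 0.0109). In each tissue most of the list was not called, and 2 genes were called in both. Without ovary 200M replicate 2 the cell cycle count in ovary was 20 raised, and it was 1 to 3 raised without WT replicate 1, 3 or 4 or 200M replicate 1, 3 or 4. The pituitary count was 3 lowered without the WT library that carries no number (replicate u), 5 without WT replicate 1 and 6 without 200M replicate 3. Without pituitary WT replicate 2 and 200M replicate 4, a pair chosen after seeing the data, the pituitary count was 18 lowered of 29 tested.

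Replication histone genes and ribosomal protein genes were grouped by name after their values had been seen. Of 35 histone genes tested in pituitary 14 fell and none rose (median −0.51), against 10.1% lowered among genes tested in both tissues, and of 46 in ovary 12 rose and 1 fell (median 0.62), against 1.06% raised. The ovary count was 4 or 5 raised without WT replicate 1 or 4 or 200M replicate 1, 3 or 4, and the pituitary count was 9 lowered without WT replicate u. Of ribosomal protein genes, which encode the structural proteins of the ribosome, 52 of 82 were lower in pituitary (median −0.30) and 7 of 81 higher in ovary (median 0.16). The ovary count was 0 without WT replicate 1, 2 or 4 or 200M replicate 1, 1 without 200M replicate 3 or 4, 11 without WT replicate 3 and 17 without 200M replicate 2, and the pituitary count was 32 lowered without WT replicate u. Rpl24, for example, stood at 31.8, 31.2, 32.3 and 31.9 CPM in WT ovary and at 40.2, 42.3, 38.5 and 40.5 CPM in 200M ovary. The same gene differed by −0.24 in pituitary (adjusted p = 0.0908), and its interaction was −0.57 ± 0.12 (adjusted p = 0.00184). As these are bulk libraries, a change in the share of a cell type and a change of RNA per cell cannot be told apart, for these or any other group.

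On the macrophage and complement list 4 of 19 rose and none fell in pituitary (median 0.26), against 11.3% raised among genes tested in both tissues. In ovary 5 of 22 fell and none rose (median −0.29), against 1.71% lowered, and 3 fell without WT replicate 1, WT replicate 4 or 200M replicate 1. Of 19 interactions 6 were called, all higher in pituitary, against 9.28%, and 9 were without pituitary 200M replicate 4. With a replicate block 4 of 20 interactions were called, and 0 of 20 genes rose in pituitary. A replicate block within genotype left 1 of 19 interactions called. Mrc1, the macrophage mannose receptor, was called in both tissues. It stood at 4.80, 4.06 and 4.83 CPM in WT pituitary and between 6.70 and 8.69 CPM in 200M pituitary, but between 55.0 and 63.4 CPM in WT ovary and between 35.1 and 49.0 CPM in 200M ovary. The log2 fold changes were 0.79 and −0.51 (interaction 1.32, adjusted p = 3.36e-05). Cd68, another macrophage gene, was not called in either tissue (0.26 and −0.14).

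Kit, the receptor for stem cell factor and a marker of oocytes and theca cells, fell in pituitary (−0.73) and rose in ovary (0.60). Its ovary values were 89.9, 86.4, 74.0 and 85.3 CPM in WT and 141, 120, 131 and 117 CPM in 200M, with no overlap. Kitl, which encodes its ligand, rose by 0.45 in ovary. Snap91, an endocytic adaptor of clathrin coats in neurons, rose by 0.45 in pituitary and fell by 1.31 on the log2 scale in ovary. Col6a1, a collagen VI chain, rose by 0.57 in pituitary and fell by 0.37 in ovary, and Parm1, a mucin-like protein listed among luteal genes, rose by 0.62 and fell by 0.38.

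The shared increases named by the rule were Kcng4, Trpc5, Mpp3, Ptprt, Csdc2 and Thumpd2. Kcng4, a modifier subunit of Kv2 potassium channels, stood at 0.40, 0.549 and 1.16 CPM in WT and at 2.20, 3.19, 3.62 and 1.89 CPM in 200M pituitary. In ovary it stood at 3.72, 3.42, 3.90 and 4.03 CPM in WT and at 12.3, 5.95, 10.9 and 12.6 CPM in 200M, again without overlap and with 200M replicate 2 the lowest mutant. It rose 3.91-fold in pituitary and 2.74-fold in ovary (log2 1.97 and 1.45, adjusted p = 0.00151 and 0.00146). The interaction was 0.53 ± 0.48 (adjusted p = 0.524), so the tissues were not shown to differ, although the standard error leaves room for a difference of that size.

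Trpc5, a calcium-permeable cation channel, rose 2.10-fold in pituitary and 1.79-fold in ovary. Mpp3, a membrane-associated guanylate kinase, rose by 1.08 and 0.65 on the log2 scale, and Ptprt, a receptor tyrosine phosphatase, by 0.60 and 0.69. Csdc2, an RNA-binding cold-shock domain protein, rose by 0.62 and 0.60, and Thumpd2, an RNA methyltransferase, by 0.56 and 0.53. The ovary calls for Trpc5, Mpp3 and Thumpd2 were close to the threshold (adjusted p = 0.0319, 0.0311 and 0.0418) and were lost when several of the ovary libraries were left out singly. Serpine2, a secreted inhibitor of serine proteases, rose in both tissues but more in pituitary, by 0.99 against 0.45 (interaction 0.56, adjusted p = 0.00362). Gli2, an effector of hedgehog signalling, rose by 0.59 and 0.29.

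Krt7, a keratin of simple epithelia, was the largest shared decrease by that rule. It stood at 10.0, 11.2 and 13.9 CPM in WT pituitary and at 1.14, 1.96, 1.30 and 1.89 CPM in 200M pituitary. Ovary values were 11.5, 14.2, 10.8 and 16.3 CPM in WT and 5.69, 7.58, 6.42 and 4.01 CPM in 200M. Both falls cleared the spread between libraries, 7.54-fold in pituitary (adjusted p = 1.21e-08) and 2.21-fold in ovary (adjusted p = 0.00343), and the pituitary fall was larger (interaction −1.76 ± 0.32, adjusted p = 0.000538).

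Dsg2, a desmosomal cadherin, stood at 102, 106 and 101 CPM in WT pituitary and between 27.5 and 33.8 CPM in 200M pituitary. In ovary it lay between 22.9 and 29.5 CPM in WT and at 19.1, 20.1, 20.1 and 13.8 CPM in 200M, the lowest being replicate 4, whose oviduct and surface epithelium genes were low as well. The part of that tissue in the ovary result was not tested, but without replicate 4 the ovary difference was −0.39 (adjusted p = 0.108). For Zfp36, which encodes the mRNA-decay protein tristetraprolin, the falls were 1.45 and 0.48 on the log2 scale. Fam163a fell by 1.08 and 0.97, Casp8, the initiator caspase of death receptors, by 0.57 and 0.48, and D16Ertd472e by 0.48 and 0.60. The interaction was called for 13 of the 62 shared genes, with the larger effect in pituitary for 10 and in ovary for 3.

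**Figure D3:**
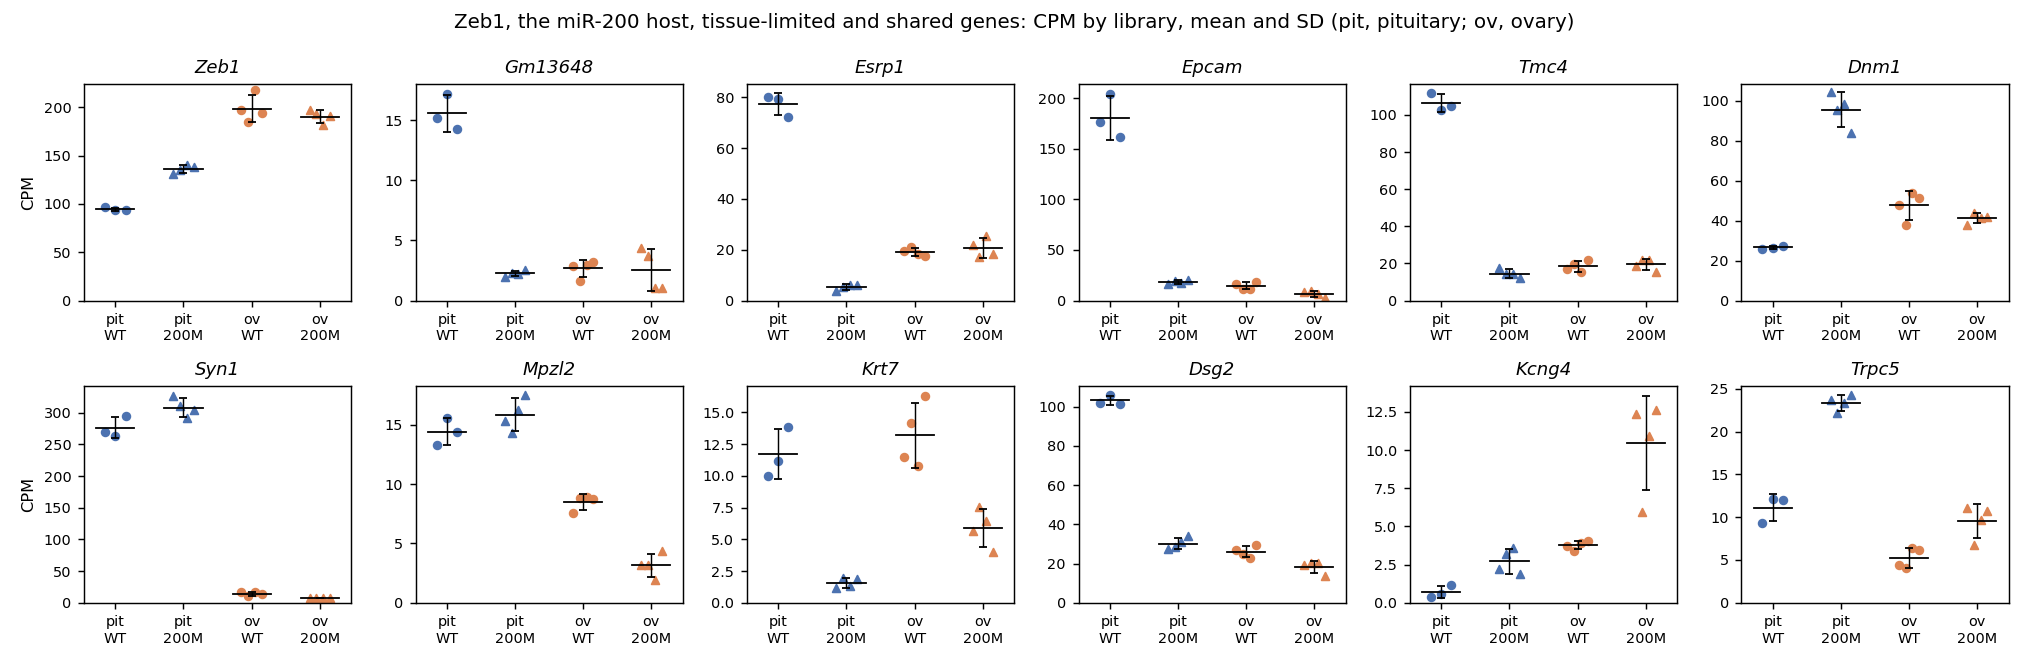
CPM in each library for Zeb1, Gm13648 and 10 genes of the pituitary-limited, ovary-limited and shared classes, with points for libraries and bars for mean ± SD. Esrp1, Tmc4 and Dnm1 separate by genotype in pituitary alone, Syn1 and Mpzl2 in ovary alone, and Krt7, Dsg2, Kcng4 and Trpc5 in both. Epcam also separates in both, though its ovary difference was not called.

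The pituitary-limited decreases named by the rule were Esrp1, Tmc4, Arhgef5, Dmrta1 and Large2. Esrp1, the splicing regulator that keeps epithelial isoforms, stood at 80.1, 79.2 and 72.2 CPM in WT pituitary and at 3.87, 5.23, 5.93 and 6.17 CPM in 200M pituitary. In the ovary it stood at 19.6, 21.1, 18.4 and 17.3 CPM in WT and at 21.9, 17.0, 25.4 and 18.3 CPM in 200M. The groups lay far apart in pituitary and were interleaved in ovary. The fall was 14.7-fold in pituitary (adjusted p = 2.39e-14), the ovary difference was 0.10 ± 0.13 (adjusted p = 0.775), and the interaction was −3.97 ± 0.19 (adjusted p = 5.5e-12), the smallest interaction p-value of the lowered genes.

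Tmc4, a transmembrane channel-like gene of epithelia, followed the same pattern. It stood at 112, 103 and 105 CPM in WT pituitary and at 17.5, 14.1, 14.4 and 12.0 CPM in 200M pituitary, against 15.4–21.8 CPM in WT ovary and 15.3–21.9 CPM in 200M ovary. Its interaction was −2.93 ± 0.18, and it shares reads with the overlapping gene Leng1 to an unknown degree. Arhgef5, a guanine nucleotide exchange factor, fell by 1.87 in pituitary and differed by −0.16 in ovary. Dmrta1, a DM-domain transcription factor, fell by 2.37 and differed by 0.32, and Large2, a glycosyltransferase that extends the glycan of dystroglycan, fell by 2.51 and differed by 0.34.

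The epithelial list, 60 genes of cell adhesion, polarity and epithelial splicing, was called as follows. In pituitary 38 of 51 tested fell and none rose (median −1.28), against a background of 10.1% lowered. In ovary 2 of 56 fell, Krt7 and Dsg2, and none rose (median −0.31), against 1.71% lowered, and without 200M replicate 2 there were 5 lowered. The interaction was called for 24 of 50, all lower in pituitary (median −0.76), against 6.65% of genes tested in both tissues. Epcam, Esrp1 and Rab25 had been chosen for study in part on these libraries and are not independent evidence for the direction.

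Epcam, an epithelial adhesion molecule, is less precisely measured in ovary. It stood at 176, 204 and 162 CPM in WT pituitary and at 16.6, 19.8, 17.2 and 20.8 CPM in 200M pituitary, a 9.78-fold fall. Ovary levels were 16.1, 11.5, 11.8 and 18.6 CPM in WT and 7.95, 9.50, 6.12 and 2.52 CPM in 200M. The ovary groups did not overlap, yet the difference of −1.14 ± 0.35 missed the threshold (adjusted p = 0.151). It passed with the DESeq2 Wald test (−1.15, adjusted p = 0.00362) and missed with limma voom (−1.24, adjusted p = 0.0576). The lowest value again belonged to 200M replicate 4, and without that library the ovary difference was −0.86 (adjusted p = 0.0335). The interaction was called with all libraries (−2.15, adjusted p = 0.00183) and without replicate 4 (−2.42, adjusted p = 3.94e-06). Rab25, a small GTPase of apical recycling, fell by 3.83 in pituitary and differed by −0.68 in ovary (adjusted p = 0.42), and Ap1m2, the epithelial subunit of a clathrin adaptor, fell by 3.31 and differed by 0.00 (adjusted p = 0.998). Without ovary 200M replicate 4 the interaction was called for 29 of the epithelial genes. It was called for 19 without pituitary WT replicate u, for 16 with a replicate block and for 15 with a replicate block within genotype.

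The pituitary-limited increases included genes of synaptic vesicle recycling and of the cytoskeleton. Dnm1, the neuronal dynamin that severs endocytic vesicles, stood at 25.9, 26.4 and 27.4 CPM in WT pituitary and at 104, 95.2, 98.0 and 83.7 CPM in 200M pituitary. In ovary it stood at 47.5, 37.7, 53.7 and 51.2 CPM in WT and at 38.0, 43.8, 41.2 and 41.8 CPM in 200M. It rose 3.60-fold in pituitary (adjusted p = 1.08e-11), and the ovary groups overlapped (−0.21, adjusted p = 0.303). Cap2, a cyclase-associated protein that acts on actin, rose 4.84-fold in pituitary, from 6.30–9.99 to 32.6–40.3 CPM, and differed by −0.30 in ovary. Dpp6, an auxiliary subunit of Kv4 potassium channels, rose by 1.64 on the log2 scale and differed by −0.37. Grb10, an adaptor that dampens insulin receptor signalling, rose by 1.03 and differed by −0.17, and Impact, a regulator of translation under stress, rose by 0.67 and differed by −0.08.

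On the neuronal and exocytosis list 40 of 69 rose and 4 fell in pituitary (median 0.37). Among genes tested in both tissues, 11.3% were raised and 10.1% lowered there. In ovary 1 of 54 rose and 3 fell (median 0.04), against 1.06% and 1.71%. Interactions were called for 23 of 53, with 21 higher and 2 lower in pituitary, against 9.28% and 6.65%. Among members tested in both tissues, Trank1 had an interaction of 4.29, Elavl3, an RNA-binding protein of neurons, 2.23, and Tubb3, a neuronal tubulin, 1.59. The mesenchymal list was less uniform. In pituitary 12 of 32 rose and 1 fell (median 0.35), and in ovary 1 of 35 rose and 1 fell (median −0.17), against the same shares. The interaction was higher in pituitary for 10 of 32 and lower for 2, against 9.28% and 6.65%. Without ovary 200M replicate 2, however, 11 of 36 fell and 1 rose in ovary, and 14 interactions were higher in pituitary. Vim, the mesenchymal intermediate filament protein, rose by 0.47 in pituitary and differed by −0.14 in ovary (interaction 0.63, adjusted p = 0.00426). Cdh2, N-cadherin, rose by 0.40 and differed by −0.07. The members that went the other way were Col1a2, a chain of type I collagen (interaction −1.46), and Snai2, a repressor of the Snail family (interaction −1.37).

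**Figure D4:**
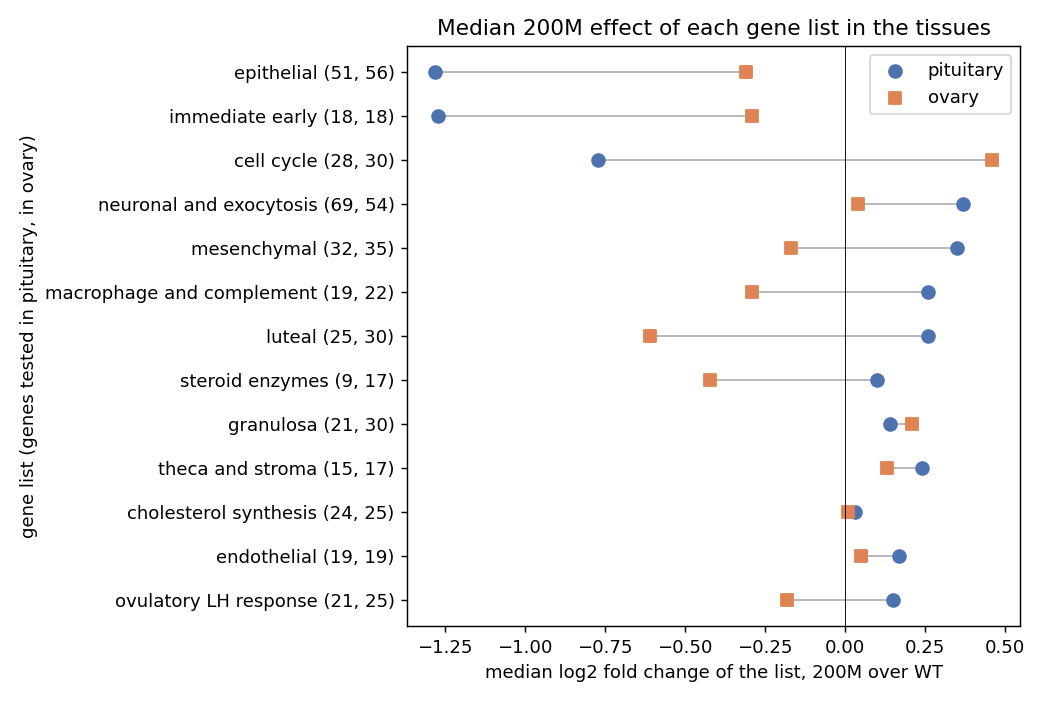
Median log2 fold change of 200M over WT for 13 gene lists in pituitary and in ovary, with the zero line marking no difference. The epithelial list has a median of −1.28 in pituitary and −0.31 in ovary, and the cell cycle list medians of −0.77 and 0.46.

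The ovary-limited genes were fewer, and more were lowered than raised. Syn1, a synaptic vesicle phosphoprotein, is abundant in pituitary, where it stood between 263 and 296 CPM in WT and between 291 and 326 CPM in 200M. In ovary it stood at 17.1, 10.8, 17.3 and 13.2 CPM in WT and at 7.59, 8.25, 7.01 and 6.99 CPM in 200M. The ovary groups did not overlap and the pituitary groups did. It fell 1.96-fold in ovary (adjusted p = 0.00354) and differed by 0.16 in pituitary (adjusted p = 0.067), with an interaction of 1.15 ± 0.15.

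Mpzl2, a junctional adhesion protein of epithelia, moved in ovary where most epithelial genes did not pass. It stood at 7.54, 8.85, 8.93 and 8.77 CPM in WT ovary and at 3.20, 3.17, 1.94 and 4.35 CPM in 200M ovary, a 2.65-fold fall (adjusted p = 0.00146). In pituitary it stood between 13.3 and 15.6 CPM in WT and between 14.3 and 17.5 CPM in 200M, a difference of 0.13 (adjusted p = 0.509). Here the lowest mutant was replicate 3, and replicate 4, low in oviduct genes, was the highest. The part of oviduct or surface tissue in this fall was not tested.

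The other named ovary decreases were of metabolic, transport and translation genes. Sc5d, which acts late in cholesterol synthesis, fell by 0.60 in ovary and differed by 0.17 in pituitary. Atp13a3, a polyamine transporter, fell by 0.50 and differed by 0.12, and Bzw1, a regulator of translation start-site choice, fell by 0.54 and differed by 0.18. Fdx1, the ferredoxin that feeds electrons to mitochondrial steroid enzymes, stood at 260, 306, 254 and 212 CPM in WT ovary and at 114, 169, 103 and 131 CPM in 200M ovary. It fell 1.99-fold (adjusted p = 0.0435) and differed by 0.12 in pituitary (interaction 1.14, adjusted p = 0.00779). Among the ovary-limited increases, Icosl, the ligand of a T-cell co-stimulatory receptor, rose by 0.51. Its pituitary difference was −0.58, larger in size, and just missed the threshold (adjusted p = 0.0635). Sptb, erythroid beta-spectrin, rose by 0.56, Arxes2 by 0.61 and Osbpl5, an oxysterol-binding-protein relative, by 0.40, with interactions of −0.65, −0.76 and −0.61. Reln, a secreted glycoprotein, rose by 0.50 in ovary and differed by −0.56 in pituitary (adjusted p = 0.202).

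The luteal counts depended on single libraries. On a list of 30, the median was −0.61 in ovary, with 5 lowered and 1 raised, against 1.71% lowered among genes tested in both tissues. It was 0.26 in pituitary, with 7 raised and 2 lowered of 25 tested, against 11.3% raised, and 3 were raised without pituitary WT replicate 2. Of its 25 interactions, 9 were called, all higher in pituitary (median 1.01), against 9.28%. Among the members raised in pituitary was Prlr, the prolactin receptor, which rose by 0.69 in pituitary and differed by −0.70 in ovary (adjusted p = 0.141), with an interaction of 1.40 (adjusted p = 0.00202).

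Ovary 200M replicate 2 stood apart from the other 3 mutants in several luteal genes, though not in the list as a whole. The summed level of the list was 12070, 13880, 8861 and 12980 CPM in 200M replicates 1 to 4. In WT it was 12610 to 17080 CPM, so replicate 4 was within the WT range as well. Sfrp4, a secreted Wnt antagonist of corpora lutea, stood between 251 and 359 CPM in WT ovary and at 7.0, 234, 7.31 and 10.4 CPM in 200M replicates 1 to 4. Runx2, a transcription factor induced at luteinization, stood between 152 and 216 CPM in WT and at 16.1, 117, 18.1 and 15.1 CPM in 200M. Star, which carries cholesterol into mitochondria for steroid synthesis, stood at 245, 141, 126 and 109 CPM in WT and at 35.4, 118, 28.5 and 31.1 CPM in 200M. In each case replicate 2 alone was near or within the WT range, and with all libraries none of these genes passed in ovary (adjusted p = 0.44, 0.262 and 0.268).

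Without replicate 2, Sfrp4 was lower by 5.28 on the log2 scale (adjusted p = 2.43e-06), Runx2 by 3.41 (adjusted p = 1.72e-08) and Star by 2.29 (adjusted p = 0.0242). Cyp11a1, the side-chain cleavage enzyme that starts steroid synthesis, was lower by 0.87 (adjusted p = 1.86e-06), against −0.69 with all libraries (adjusted p = 0.125). The luteal list then had 18 lowered and 2 raised in ovary and 16 of its interactions called, all higher in pituitary, whereas none was lowered in ovary without 200M replicate 1, 2 were without 200M replicate 3, and 1 was without 200M replicate 4, WT replicate 1 or WT replicate 4. Star, Cyp11a1, Runx2 and Sfrp4 had been picked for study from these libraries and are not independent evidence. Replicate 2 was set apart for its values in luteal genes, so the p-values and counts without it are a description and not a test. In pituitary, Runx2 rose by 0.56 (adjusted p = 0.017), Star stood between 0.735 and 2.75 CPM with no difference called (adjusted p = 0.98), and Cyp11a1 was too low to be tested.

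**Figure D5:**
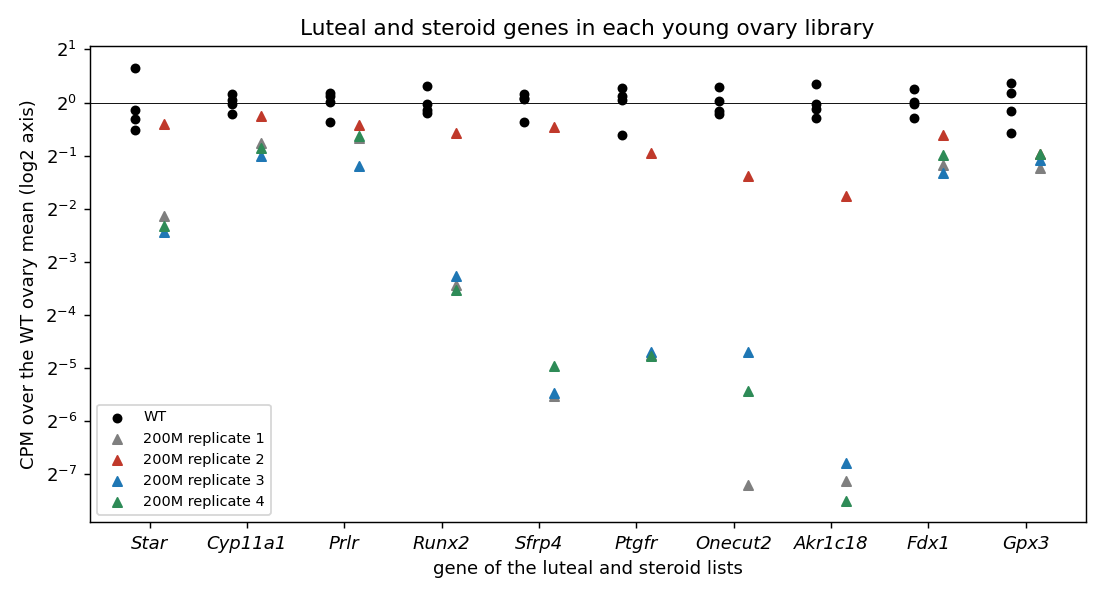
Level of 10 luteal and steroidogenic genes in each ovary library relative to the mean of the 4 WT ovaries, on a log2 axis. For Sfrp4, Runx2, Onecut2 and Akr1c18, 200M replicates 1, 3 and 4 lie far below the WT libraries and replicate 2 lies between.

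For the other ovarian lists, the shares called among genes tested in both tissues were 11.3% raised and 10.1% lowered in pituitary, and 1.06% raised and 1.71% lowered in ovary. The interaction was called higher in pituitary for 9.28% of those genes. Of the granulosa list 4 of 30 rose and none fell in ovary, namely Esr2, the beta oestrogen receptor (0.71), Bmpr1b (0.53), Kitl (0.45) and Serpine2 (0.45), while in pituitary 5 of 21 rose and 6 fell. Without ovary 200M replicate 2, 9 rose in ovary. Steroid enzyme genes had 3 of 17 lower in ovary (Hsd17b7, Fdx1 and Fdxr) and 3 of 9 interactions called, all higher in pituitary. The number lower in ovary was 7 without 200M replicate 2, 0 without 200M replicate 1 or 3, and 1 without 200M replicate 4, WT replicate 1 or WT replicate 4. Of genes of the ovulatory response to luteinizing hormone, 1 of 25 passed in ovary, Timp1, a metalloproteinase inhibitor (−0.97), and 7 of 21 passed in pituitary, 5 raised and 2 lowered, and without ovary 200M replicate 2 there were 4 lowered and 1 raised in ovary. In the theca and stroma list 1 of 17 rose in ovary and 5 of 15 in pituitary (3 without WT replicate 1, 2 or u or 200M replicate 3), where the hedgehog targets Gli1 (1.67) and Hhip (0.98) also had called interactions of 1.43 and 0.77. One oocyte gene of 20, Kit, passed in ovary, and the list's median there was 0.36. Without 200M replicate 2, 8 oocyte genes of 21 tested were raised. Cholesterol synthesis genes had 2 of 25 lower in ovary and 1 raised and 1 lowered of 24 in pituitary.

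Markers of other cells gave the following. Among genes tested in both tissues, 11.3% were raised and 10.1% lowered in pituitary, and 1.06% raised and 1.71% lowered in ovary. Endothelial genes had 1 of 19 raised in pituitary, none called of 19 in ovary and no interaction called of 18. Pituitary stem cell genes had none called in pituitary (of 15) or ovary (of 13). Oviduct and surface epithelium genes had 4 of 10 lower in pituitary, all of them keratins or Epcam, and 3 of 20 lower in ovary (Upk1b, Krt7 and Lrrn4). Without ovary 200M replicate 4, the other 3 mutant ovaries had summed levels of that list within the WT range (678 to 858 CPM against 492 to 1000 CPM). Posterior and intermediate lobe genes had 3 of 13 higher and 1 lower in pituitary. Adipocyte genes had 1 of 2 raised in pituitary and none of 9 called in ovary, erythrocyte genes had none called in either tissue, and 4 skeletal muscle genes tested in ovary were not called. Pituitary hormone and receptor genes had 2 of 12 higher and 4 lower in pituitary, and their summed level was 160300 to 182900 CPM in WT and 67360 to 86470 CPM in 200M pituitary. Those lowered were Lhb (−1.68), Cga (−0.67), Prl (−1.61) and Drd2 (−0.50), those higher Trhr (1.13) and Crhr1 (1.09), and none of the 3 tested in ovary was called. Lineage regulators had 3 of 22 higher and 4 lower in pituitary.

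Of 18 immediate early genes tested in pituitary, 7 were lowered and none raised (median −1.27), against 10.1% lowered among genes tested in both tissues, and in ovary 1 of 18 was, Zfp36 (median −0.29), against 1.71%. The summed level of the list in pituitary was 1977, 4479 and 1777 CPM in WT and 809, 827, 837 and 1873 CPM in 200M. WT replicate 2 and 200M replicate 4 were the high libraries of each genotype, with Fos at 537 and 176 CPM against 53.3 CPM or less in the rest. Without WT replicate 2 the pituitary median was −0.70. Without both, 11 of the list fell and 1 rose in pituitary. These libraries were singled out for their immediate early values, so the results without them are a description and not a test. Interactions were called for 3 of 17, all lower in pituitary, against 6.65%, including Atf3 (−2.02) and Nr4a2 (−1.76). The number lower was 5 without pituitary 200M replicate 4 and 2 without pituitary WT replicate 2 or ovary 200M replicate 1. Without pituitary 200M replicate 4 or without pituitary WT replicate 2, 1 interaction was also called higher in pituitary.

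Genes expressed well enough to be tested in only one of the tissues were also called. Of 1556 tested in pituitary alone, 249 were raised and 159 lowered, and of 2607 tested in ovary alone, 21 were raised and 26 lowered. Over all genes tested in each tissue, the share called in either direction was 21.8% in pituitary and 2.64% in ovary. In pituitary, Nrsn2, a neuronal vesicle membrane protein, rose 9.37-fold, from 7.0, 7.36 and 5.88 CPM in WT to 65.5, 60.0, 63.0 and 64.6 CPM in 200M, and stayed under 1 CPM in every ovary. Resp18, a protein of secretory granules, rose by 0.89 on the log2 scale. The claudin genes Cldn9 and Cldn6, whose products form tight junctions, fell by 1.69 and 2.01, and Olfm4 by 1.31.

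In ovary, Serpina3c, a serine protease inhibitor, rose 2.43-fold, from 15.0–19.7 CPM in WT to 36.0–47.1 CPM in 200M. Ccdc3, a secreted factor, rose by 0.70 on the log2 scale and Gsta2, a glutathione transferase, by 1.67. Upk1b, a uroplakin found in ovarian surface epithelium, stood at 30.2, 30.7, 31.4 and 37.0 CPM in WT and at 11, 17.4, 12.2 and 15.9 CPM in 200M, with no overlap (−1.18, adjusted p = 0.000156). Replicate 4, low in oviduct genes, was not the lowest of the mutants, and the part of surface tissue in the fall was not tested. Wnt2b, a Wnt ligand, fell by 1.06 and Tnfrsf9, a co-stimulatory receptor of lymphocytes, by 2.48, from 3.16–6.92 to 0.474–1.34 CPM.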

How the data were processed

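The 15 libraries were stranded, rRNA-depleted, paired-end RNA-seq. The counts used here are raw read counts per gene that the authors deposited, made by them with STAR 2.7.1a on mm10 and featureCounts with strand, each count table covering 1 tissue. The authors' own comparison columns in those tables (fold changes and p-values from DESeq2) were not used. One WT pituitary count column carried a number that no label has and was used as an unnumbered replicate, called u.

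Genes were tested by edgeR 4.0.16 quasi-likelihood (robust, TMM scaling, R 4.3.3) within each tissue and, for genes passing filterByExpr in each tissue, as a genotype by tissue interaction over all 15 libraries. That fit scales all libraries together, so an interaction can differ slightly from the difference of the within-tissue values. Benjamini-Hochberg adjusted p under 0.05 was a call. CPM are counts per 1000000 counts after TMM within a tissue. The procedure was tested on simulated data.

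Named genes are Zeb1, Zeb2 and the miR-200 hosts; per direction, the 6 opposite and 6 shared genes with the largest smaller absolute fold change and no overlap of genotypes; the 5 limited genes with the smallest interaction p and at least 1 CPM in each tissue; the 3 single-tissue genes with the smallest p; and list members. Unnamed gene models were passed over, and 1 gene that the rule chose is not reported here. The members and gene lists were chosen with earlier results of these data known. Alternatives were DESeq2 1.42.0, limma voom (limma 3.58.1), other scaling and filters, a replicate block and leaving out libraries. Correlations of same-numbered pituitary and ovary libraries of one genotype around their group means were 0.01 to 0.03. Those of all other pairs within a genotype were −0.089 to 0.092. These values cannot decide whether same-numbered libraries came from one mouse, since 2 organs need not share such deviations. The main fit used no pairing. No 2 libraries of a group agreed within sampling noise.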

Additional observations from a re-analysis of the deposited data

Results flagged for a closer look

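Each interaction below differed between the tissues by the test of the difference itself and is given as a log2 value, the 200M effect in pituitary minus that in ovary. Over all genes, 2651 interactions were called. Zeb1 stood at 0.60 and Gm13648 at −2.74.

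Opposite genes raised in pituitary had interactions of 4.55 (Sectm1b), 3.03 (Kcna4), 1.83 (Tmem150c), 2.54 (Bean1), 1.73 (Gda) and 1.80 (Homer2). Those lowered in pituitary had −2.26 (Mycl), −2.28 (Kif18b), −2.56 (Hist1h1d), −1.45 (Hist1h3d), −1.61 (Hist1h1e) and −2.02 (Tdrd5). Among shared decreases the fall was larger in pituitary for Krt7 (−1.76), Dsg2 (−1.26) and Zfp36 (−0.95).

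Pituitary-limited increases had interactions of 2.07 (Dnm1), 1.22 (Grb10), 2.03 (Dpp6), 2.58 (Cap2) and 0.77 (Impact), and pituitary-limited decreases −3.97 (Esrp1), −2.93 (Tmc4), −1.70 (Arhgef5), −2.68 (Dmrta1) and −2.84 (Large2). Ovary-limited increases had −1.09 (Icosl), −0.76 (Arxes2), −0.61 (Osbpl5), −0.57 (Rpl24) and −0.65 (Sptb), and ovary-limited decreases 1.15 (Syn1), 0.73 (Bzw1), 0.63 (Atp13a3), 1.55 (Mpzl2) and 0.78 (Sc5d).

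Single libraries lay far from the rest of their group of 4 by Dixon's criterion, which chance alone meets in about 1 in 20 groups. Every group of 4 was searched for each gene named by rule, single-tissue genes apart, so several such values would arise by chance alone. They were Tdrd5 in pituitary 200M replicate 2 (1.55 CPM), Dsg2 in ovary 200M replicate 4 (13.8 CPM), Casp8 in ovary WT replicate 2 (71.1 CPM) and Mpzl2 in ovary WT replicate 1 (7.54 CPM). Each of these values stayed on its own side of the other genotype, which the rule that chose Tdrd5, Dsg2 and Casp8 required.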

How the results depend on the processing

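Zeb1's interaction kept its direction and its call under all 25 alternatives (0.54 to 0.66). No called result changed sign under an alternative. Among single genes, calls were lost in 293 of the interaction values recomputed for list members, in 47 of the ovary values of the shared genes and in 1 interaction of the genes named by rule.

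With DESeq2 the counts were 872 ovary calls, 105 same-direction, 152 opposite and 311 ovary-limited genes. With no filter on low counts they were 798 ovary calls, 156 opposite and 267 ovary-limited genes. Leaving out single libraries moved the ovary calls between 161 and 1373, the same-direction genes between 18 and 152, the opposite genes between 28 and 255 and the ovary-limited genes between 51 and 468, lowest without ovary 200M replicate 1 and highest without 200M replicate 2 in each case. Without ovary 200M replicates 2 and 4, chosen after seeing the data, they were 1019, 109, 188 and 363. Of the 90 opposite genes, 79 remained called so without that pair, 77 without pituitary WT replicate 2 and 200M replicate 4, 76 with DESeq2 and 65 with limma voom. Of the 62 same-direction genes, 53, 48, 57 and 40 remained. The pituitary pair was likewise chosen after seeing the data.

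Whether replicate numbers pair samples of one mouse was not known, so a fit with a replicate block within genotype is given as an alternative. A fit with a plain replicate block is given too. It groups libraries by number across the genotypes, which are different mice, so it cannot address that pairing. The fit with a replicate block also leaves out the unnumbered WT pituitary library, and it gave 1767 interactions, 2584 pituitary calls, 231 ovary calls, 24 same-direction, 32 opposite, 1089 pituitary-limited and 77 ovary-limited genes. Leaving out that library alone, with no block, gave 2028 interactions, 2983 pituitary calls and 1341 pituitary-limited genes. A replicate block within genotype, which leaves out that library and ovary WT replicates 3 and 4, gave 1440 interactions, 1086 pituitary-limited and 88 ovary-limited genes. Zeb2's interaction passed the threshold under 8 alternatives, among them DESeq2 (adjusted p = 0.0179).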

Other observations

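Of the 2651 genes with a called interaction (15.9% of 16643 tested), 521 were called in neither tissue alone. In 320 of them the 200M value was above WT in pituitary and below it in ovary, in 196 the reverse held, and in 5 both tissues were lower. Opposite signs are largely built into this selection, a called difference without a call in either tissue, so the split is a description alone.

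The flanks of the edited gene were checked by position. Of the 1853 pituitary-limited genes, 10 (0.54%) lay within 10 Mb of Zeb1, against 63 of all 16643 genes tested in both tissues (0.379%). Zeb1 itself is included in both counts. Of the 90 opposite genes, 1 (1.11%) did.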
